A study of Saccharomyces cerevisiae with 8 samples.

Results

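The COS genes of budding yeast were described in wild-type and upf1 mutant cells with and without a translation block. The 10 members were chosen by systematic identifier: COS1 (YNL336W), COS2 (YBR302C), COS3 (YML132W), COS4 (YFL062W), COS5 (YJR161C), COS6 (YGR295C), COS7 (YDL248W), COS8 (YHL048W), COS10 (YNR075W) and COS12 (YGL263W). They are 10 of 11993 features in the deposited table, which also holds non-coding transcripts, and 10 of its 5976 protein-coding genes. The family was put forward with measured values of these libraries already known, so the members' own levels and changes are given as a description, without p-values.

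COS genes encode related membrane proteins of the DUP380 branch of the DUP family, and they lie next to the telomeres, where gene copies are exchanged between chromosome ends. Cos proteins are known to carry ubiquitin into endosomes, so that plasma membrane proteins without their own ubiquitin are sorted with them into multivesicular bodies and degraded in the vacuole. Upf1 is an RNA helicase at the core of nonsense-mediated decay, which degrades mRNAs whose translation ends prematurely. Cycloheximide (CHX) stops ribosomes during elongation, and mRNAs that decay through translation can then persist.

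Total RNA was sequenced with strand kept from BY4741 cells, a laboratory strain of mating type a that carries his3Δ1, leu2Δ0, met15Δ0 and ura3Δ0 in every group. The 4 groups were wild type (WT) given DMSO, wild type given CHX, the mutant upf1 (upf1::kanMX4) given DMSO and that mutant given CHX, each with 2 libraries described as biological replicates. Cells grew in rich YPD medium at 30 °C to an OD600 of 0.5, and CHX was at 100 µg/ml for 15 min. The labels do not say whether the upf1 cells came from more than 1 clone.

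The libraries held between 9.1 M and 25.66 M reads on the listed features, of which 2271 to 10327 lay on the COS members. The labels were checked on marker genes. NAM7, the gene for Upf1, had 1901 to 4143 reads in the wild-type libraries and 45 to 161 in the upf1 libraries. LEU2 had 0 to 2 reads and URA3 0 to 1 in any library, and in wild type with DMSO the a-cell receptor gene STE2 had a density of 3.34 against 0.0118 for the alpha-cell receptor gene STE3. HIS3 had 296 to 1570 reads. The his3Δ1 allele removes only part of the gene, so its reads do not check the label.

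The members fall into a large group of near copies and a pair of distant relatives, and the first 80 coding bases of each gene are shown because they make that division visible. They are printed from the start codon in lower case on the coding strand of the R64 genome. Capitals mark each base that differs from what most members carry at the aligned position, which can be a gap.
COS1: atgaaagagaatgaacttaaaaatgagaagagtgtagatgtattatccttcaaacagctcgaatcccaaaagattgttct
COS2: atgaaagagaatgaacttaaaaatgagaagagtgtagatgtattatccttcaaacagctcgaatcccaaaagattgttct
COS3: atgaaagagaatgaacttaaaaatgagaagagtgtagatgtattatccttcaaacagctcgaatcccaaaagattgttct
COS5: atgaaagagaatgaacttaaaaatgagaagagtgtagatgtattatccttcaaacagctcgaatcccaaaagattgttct
COS6: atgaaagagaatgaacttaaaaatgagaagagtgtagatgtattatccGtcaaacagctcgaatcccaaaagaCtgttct
COS4: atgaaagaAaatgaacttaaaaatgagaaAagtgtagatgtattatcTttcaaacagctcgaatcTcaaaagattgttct
COS7: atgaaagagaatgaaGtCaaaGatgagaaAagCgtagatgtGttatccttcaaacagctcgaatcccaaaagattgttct
COS8: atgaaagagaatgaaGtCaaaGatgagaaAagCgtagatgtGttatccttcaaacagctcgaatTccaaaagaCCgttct
COS10: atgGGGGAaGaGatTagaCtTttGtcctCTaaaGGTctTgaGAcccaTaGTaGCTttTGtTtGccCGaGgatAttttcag
COS12: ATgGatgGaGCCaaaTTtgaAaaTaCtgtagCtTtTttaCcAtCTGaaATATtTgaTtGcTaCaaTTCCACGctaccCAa
COS1, COS2, COS3 and COS5 had no such difference, COS6 had 2, COS4 had 4, COS7 had 6 and COS8 had 9. COS10 had 33 and COS12 had 38 in their own first 80 bases. Gaps in the alignment can shift positions there, so these 2 counts are not of base differences alone.

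Across whole coding sequences the 8 members other than COS10 and COS12 were 81.8% to 100.0% identical in their 28 pairs. The 17 pairs with COS10 or COS12 were 55.0% to 62.4% identical. In protein, the 45 pairs ranged from 37.7% to 100.0%, with a median of 77.7%. COS2 and COS3 had 0 coding differences and were also the same for all 1600 bases compared upstream and for 53 bases downstream. COS5 and COS7 were 95.6% identical. The 250 bases before the start codon followed the same division, with 90.8% to 100.0% identity among the 8 near copies and 36.5% to 48.2% in pairs with COS10 or COS12.

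Each member has a single coding exon and none overlaps another annotated protein-coding gene. On R64, COS7 lies at chrIV:1802-2953 (+ strand), COS2 at chrII:810340-811479 (−), COS5 at chrX:742848-743999 (−), COS12 at chrVII:2790-3932 (+) and COS10 at chrXIV:779916-781040 (+), all within 1.7 to 3.29 kb of a chromosome end. COS8 at chrVIII:6401-7546 (+), COS4 at chrVI:6426-7565 (+), COS3 at chrXIII:7244-8383 (+), COS6 at chrVII:1081584-1082729 (−) and COS1 at chrXIV:8330-9475 (+) lie 6.4 to 8.33 kb from an end. The length the authors used for counting was worked out as the shortest fit to the values at or above the coding length. By that rule the length equalled the coding length for COS1 to COS8, and shorter lengths were not excluded. For COS10 the length was 1019 bases longer than the coding sequence and for COS12 it was 50 bases longer.

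Near copies limit what a read can say about 1 gene. Of all 50-base stretches of each coding sequence, 100.0% occurred elsewhere in the genome for COS2 and COS3, 83.0% for COS5, 72.3% for COS4, 71.1% for COS1, 66.6% for COS7, 38.3% for COS6 and 17.4% for COS8. For COS10 and COS12 the share was 0%. With stretches of 100 bases the share fell to 57.6% for COS5, 47.9% for COS7, 15.5% for COS6 and 0.2% for COS8, and stayed at 100.0% for COS2 and COS3. Read length and the treatment of reads with several matches were not given in the sources used here. Values of COS2 and COS3 are therefore uncertain as single genes, and those of COS1, COS4, COS5 and COS7 less so. By their coding sequences alone, COS8, COS10 and COS12 are the least affected. The 1019 bases counted for COS10 beyond its coding sequence, and the 50 for COS12, were not searched for copies.

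**Figure D1:**
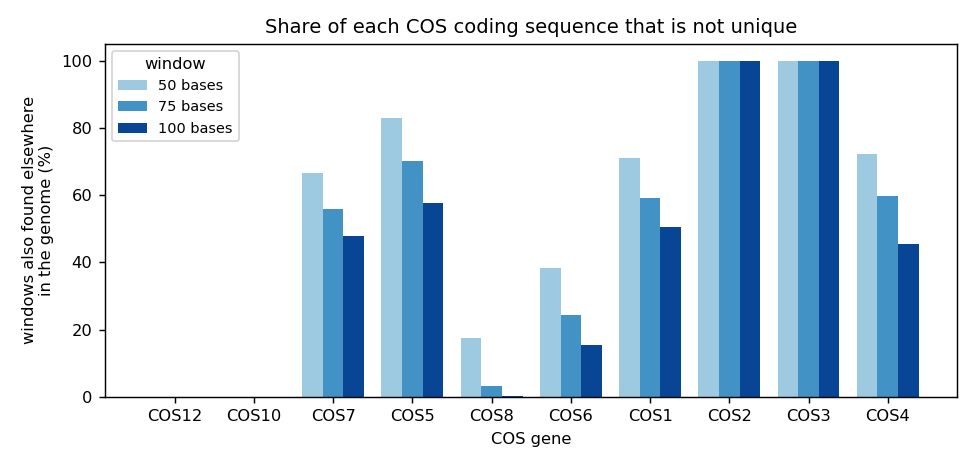
Bars give, for each COS gene (x axis), the percentage of its coding stretches of 50, 75 or 100 bases (shades) that occur elsewhere in the R64 genome (y axis). COS2 and COS3 stand at 100.0% at every length, while COS10 and COS12 are at 0%.

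In the window from 250 bases before to 50 bases after the start codon, the letters of 3 motifs were searched on both strands of 6001 promoters. TATAAA, the core promoter element of many regulated genes, was in 9 members, all but COS12, and in 45.2% of all promoters. CCCCT, the core of the stress element bound by Msn2 and Msn4, was in 8 members, COS1 to COS8, against 21.6% of all promoters. These 8 upstream regions are near copies of each other and do not count as separate matches. TGACTCA, bound by Gcn4, was in 2.7% of promoters and in none of the members.

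Levels differed widely between members. The values are the authors' normalised read densities, which are per feature length, so that genes can roughly be set side by side. The length worked out for COS10 reaches 1019 bases beyond its coding sequence, so its density is less comparable with those of the other members. In wild type with DMSO, COS6 was at 1.051 and 1.104 in the 2 libraries. COS8 followed at 0.1882 and 0.1848, and COS1 at 0.1399 and 0.1411. COS6 was therefore the highest member in both libraries by a wide margin, and the values of COS8 and COS1 did not overlap. COS7 had 0.111 and 0.1363, COS5 0.1044 and 0.09238, COS10 0.07879 and 0.09325, and COS3 0.0946 and 0.0716. COS7 lay just above the other 3, whose values overlapped, so the order of COS5, COS10 and COS3 is not resolved. COS2 had 0.03014 and 0.02855, COS12 0.0216 and 0.02771, and COS4 0.001674 and 0.001359. COS2 lay just above COS12, while COS4 rested on 2 and 3 reads.

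COS2 and COS3 carried unequal values although their coding sequences are the same. COS2 had 36 and 63 reads and COS3 had 113 and 158 in wild type with DMSO, and COS3 was the higher in all 8 libraries. How the authors' counting shared such reads was not tested. Some 50-base stretches of the pair occur in up to 7 places of the genome, so the sum of the pair is uncertain too.

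**Figure D2:**
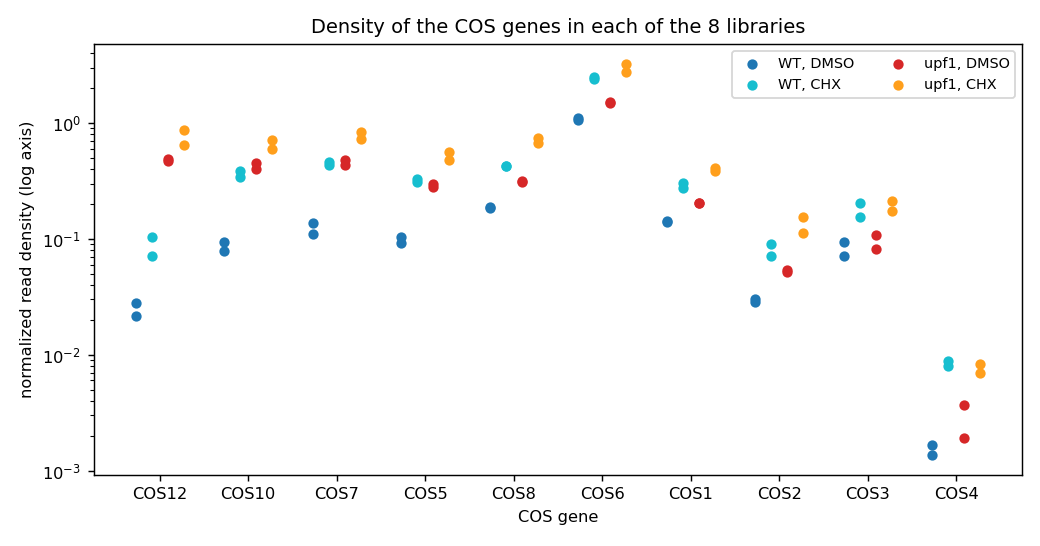
Normalised read density (y axis, log scale) of each COS gene in every library, with 1 point per library coloured by group. COS6 is the highest member in all 8 libraries, COS4 the lowest, and COS12 shows the widest gap between wild type and upf1.

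Loss of Upf1 without the drug was followed by setting upf1 against wild type, both given DMSO. Whether a change came through nonsense-mediated decay was not tested. On the deposited scale COS12, COS10, COS7 and COS5 had the larger increases in upf1 among the members. Their folds from the fit, with a small constant (the pseudocount) added to each density, were 16.2, 4.73, 3.6 and 2.83. These 4 members were grouped after their values were seen. COS12 went from the second lowest member to a level that overlapped COS7 and lay under that of COS6. COS6, COS1, COS8 and COS2 rose less and COS3 did not pass the test. Across all 5897 protein-coding genes tested, COS12 ranked 6, COS10 206, COS7 357 and COS5 630 by increase.

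COS12 had densities of 0.0216 and 0.02771 in wild type, from 27 and 64 reads, and of 0.4856 and 0.4735 in upf1, from 1058 and 666 reads. The groups lay far apart, and the log2 change was 4.02 (SE 0.21). Its size depended on the pseudocount, with 2.75 under one 10 times larger and 4.26 under one 10 times smaller. COS10, the other distant relative, had 0.07879 and 0.09325 in wild type and 0.4015 and 0.451 in upf1. Both upf1 libraries were above both wild-type libraries, with a log2 change of 2.24 (SE 0.17).

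COS7 rose from 0.111 and 0.1363 to 0.482 and 0.4329, a log2 change of 1.85 (SE 0.16). COS5 rose from 0.1044 and 0.09238 to 0.2947 and 0.2805, a log2 change of 1.50 (SE 0.16). The groups of both genes did not overlap. Since COS5 and COS7 are 95.6% identical, reads of one may have been counted on the other, and their changes are not separate observations to that extent.

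COS6, the most expressed member, went from 1.051 and 1.104 to 1.477 and 1.511, a log2 change of 0.47 (SE 0.13). COS1 went from 0.1399 and 0.1411 to 0.204 and 0.205, a log2 change of 0.52 (SE 0.15). COS8 changed by 0.72 (SE 0.14) and COS2 by 0.74 (SE 0.21). The groups of all 4 were separate but close on the deposited scale. After rescaling, COS6 and COS1 were lower in both upf1 libraries, and the groups of COS8 and COS2 overlapped. The share of all features with separate groups was not counted in any comparison, so nothing about the members is read from separate groups. On the deposited scale 62.0% of all features were called higher in upf1 with DMSO. COS3 had 0.0946 and 0.0716 in wild type and 0.1081 and 0.0811 in upf1, and these overlapped, with a log2 change of 0.18 (SE 0.22).

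Of the 9 members tested, 8 were called higher in upf1 with DMSO at an adjusted p of 0.05 (limma with Benjamini-Hochberg adjustment), where 62.0% of all tested features were. COS4 was left out by the filter on low values. The median log2 change of the 9 was 0.74 and that of all protein-coding genes 0.57, so most mRNAs were higher in upf1 on the deposited scale. With each library rescaled so that the typical protein-coding gene was level between libraries, 4 members were called higher, COS5, COS7, COS10 and COS12, where 31.1% of features were. COS6 was then called lower, where 20.7% of features were. Among the 5897 protein-coding genes tested, 1376 were then called higher and 1854 lower. The rescaled changes were 3.45 for COS12, 1.58 for COS10, 1.17 for COS7, 0.83 for COS5 and -0.23 for COS6 on the log2 scale. Nothing is read from these counts, since the choice of the family may have rested on this contrast.

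**Figure D3:**
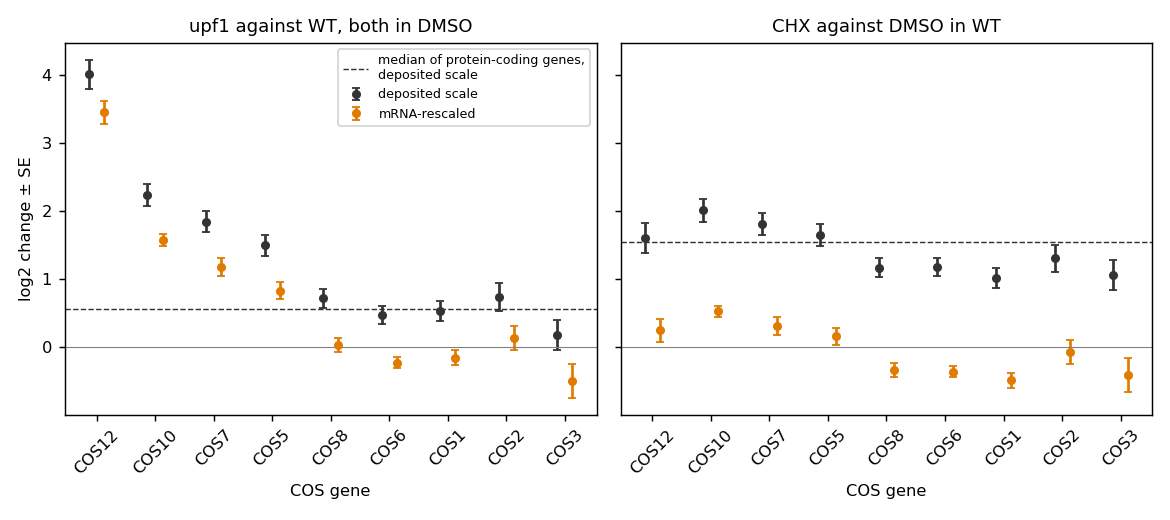
Log2 change (y axis, points with SE bars) of each tested COS gene (x axis) in upf1 against WT with DMSO (left) and in CHX against DMSO in WT (right), on the deposited scale (black) and rescaled to the typical mRNA (orange), with a dashed line at the median of protein-coding genes on the deposited scale. In the left panel COS12, COS10, COS7 and COS5 stand at 1.50 or above and COS2 and COS8 just above the dashed line at 0.57, and COS6 moves from 0.47 to -0.23 on rescaling.

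CHX in wild type raised every tested member on the deposited scale, but the typical mRNA rose as well. COS10 rose 2.01 (SE 0.17), COS7 1.81 (SE 0.16), COS5 1.65 (SE 0.16) and COS12 1.60 (SE 0.21) on the log2 scale, and the other 5 between 1.01 and 1.30. COS10 had 0.07879 and 0.09325 with DMSO and 0.3412 and 0.3839 with CHX, with no overlap. COS12 had 0.0216 and 0.02771 with DMSO and 0.07139 and 0.1028 with CHX, under its 0.4856 and 0.4735 in upf1 with DMSO. COS6 had 1.051 and 1.104 with DMSO and 2.476 and 2.404 with CHX. With a pseudocount 10 times larger the log2 change was 0.83 for COS12 and 0.69 for COS2.

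All 9 tested members were called higher with CHX in wild type, where 95.0% of all features were. The median was 1.30 against 1.55 for protein-coding genes. After rescaling, COS10 was the member called higher, at 0.53 (SE 0.09), where 44.1% of features were. COS1 at -0.49 (SE 0.11), COS6 at -0.36 (SE 0.08) and COS8 at -0.34 (SE 0.10) were called lower, where 18.9% were. Among the 5897 protein-coding genes tested, 2059 were then called higher and 1811 lower. The comparison of CHX with DMSO in wild type and that of upf1 with wild type share the wild-type DMSO libraries, so the members' values in the 2 comparisons are not independent of each other.

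CHX in upf1 also raised all 9 tested members on the deposited scale, where 89.0% of features were called higher. COS2 rose 1.24 (SE 0.21), COS8 1.17 (SE 0.14), COS3 1.00 (SE 0.22), COS6 1.00 (SE 0.13) and COS1 0.95 (SE 0.15). COS5 rose 0.84 (SE 0.16), COS7 0.75 (SE 0.16), COS12 0.65 (SE 0.21) and COS10 0.61 (SE 0.17), so the 4 members with the larger CHX changes in wild type had the smaller ones here. COS10 had 0.4015 and 0.451 with DMSO and 0.5959 and 0.7108 with CHX. Relative to the typical mRNA, COS10 at -0.60, COS12 at -0.56 and COS7 at -0.45 were called lower, where 21.4% of features and 1696 of 5897 protein-coding genes were.

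The difference between the 2 CHX effects is the log2 change in upf1 minus that in wild type. Levels with DMSO also differed between the genotypes, and what set the difference was not tested. The difference was -1.40 (SE 0.24) for COS10, -1.06 (SE 0.23) for COS7, -0.96 (SE 0.30) for COS12 and -0.81 (SE 0.22) for COS5. These 4 were called lower by the interaction term, where 25.3% of features and 883 of 5897 protein-coding genes were. For COS1, COS2, COS3, COS6 and COS8 the difference lay between -0.18 and 0.00. After rescaling, COS7, COS10 and COS12 were called lower, where 21.6% of features and 795 of 5897 protein-coding genes were. Leaving out the second wild-type CHX library or the first upf1 DMSO library brought the number of members called to 2, COS7 and COS10, in each case. A pseudocount 10 times larger did the same, with -0.23 for COS12.

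**Figure D4:**
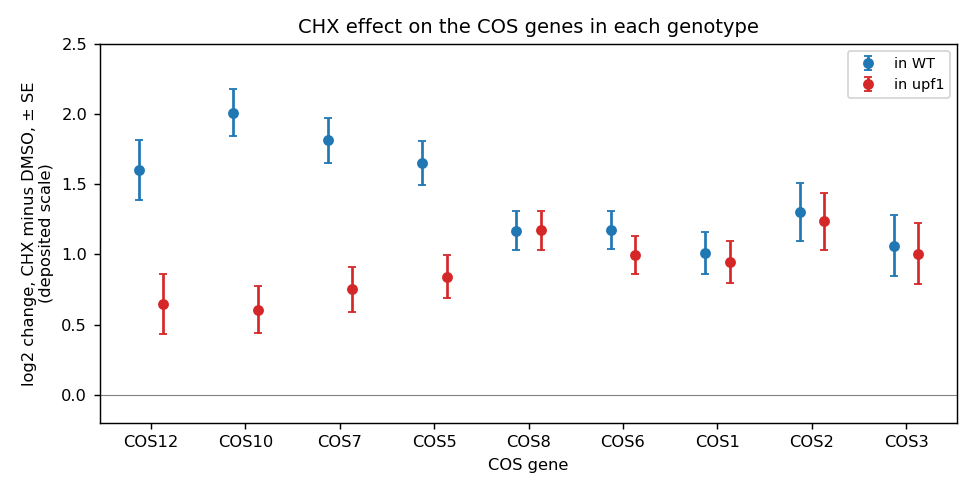
Log2 change of CHX minus DMSO on the deposited scale (y axis, points with SE bars) for each tested COS gene (x axis), in WT (blue) and in upf1 (red). For COS10 the points stand at 2.01 in WT and 0.61 in upf1, whereas for COS8 both stand at 1.17.

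With CHX in both genotypes, the upf1 libraries still held more COS12. COS12 had 0.07139 and 0.1028 in wild type and 0.6485 and 0.876 in upf1, a log2 change of 3.06 (SE 0.21). COS10 changed by 0.84 (SE 0.17), COS7 by 0.78 (SE 0.16), COS8 by 0.72 (SE 0.14), COS5 by 0.69 (SE 0.16) and COS2 by 0.67 (SE 0.21). These 6 members were called higher, where 16.5% of features were. After rescaling COS12 and COS10 were, where 5.86% of features were. The count rests on single libraries: without the first wild-type CHX library, or without the second upf1 CHX library, COS12 alone was called, and without the second wild-type CHX library COS7, COS10 and COS12 were.

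COS4 was too low to be tested, with 2 to 12 reads in any library. Its reads summed to 5 in wild type with DMSO, 13 in wild type with CHX, 9 for upf1 under DMSO and 15 for upf1 under CHX. Allowing for depth, the ratio of CHX to DMSO in wild type was 5.71 (95% exact Clopper-Pearson interval 1.91 to 20.5) and that of upf1 to wild type with DMSO 1.79 (0.538 to 6.79). Both ratios are on the deposited scale, where the median log2 change of protein-coding genes was 1.55 with CHX in wild type and 0.57 in upf1 with DMSO. The intervals cover counting error only and are no test against the typical mRNA. A difference in upf1 was not detectable at this depth.

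The make-up of the family's RNA shifted with genotype. The members' densities summed to 1.85 ± 0.0421 (SD, n = 2) in wild type with DMSO, 4.64 ± 0.004 in wild type with CHX, 3.81 ± 0.0123 for upf1 under DMSO and 7.15 ± 0.843 for upf1 under CHX. COS6 made up 58.2% of the sum in wild type with DMSO and 39.2% in upf1 with DMSO. COS12 made up 1.33% and 12.6%, COS10 4.64% and 11.2%, and COS7 6.67% and 12.0%. The share of COS10 rests on a counted length of 2144 bases, beside 1125 coding bases. In a culture, more RNA per cell and more cells with the RNA cannot be told apart.

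COS9 (YKL219W), a family member outside the 10, lies 14.5 kb from a chromosome end at chrXI:14485-15708, and 0.9% of its 50-base stretches occur elsewhere. It had 0.2999 and 0.2799 in wild type with DMSO and 0.4312 and 0.4475 in upf1. The log2 change in upf1 was 0.59 (SE 0.14, limma adjusted p = 0.0046), and -0.10 relative to the typical mRNA (limma adjusted p = 0.381). CHX in wild type raised it by 1.35 (SE 0.14, limma adjusted p = 4e-06), and the rescaled value was -0.17 (limma adjusted p = 0.134). The difference of its CHX effects was -0.23 (SE 0.20, limma adjusted p = 0.44).

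The 5 members nearest a chromosome end were COS2, COS5, COS7, COS12 and COS10. The 4 members with the larger changes in upf1 were among them, while COS2 was not one of these 4. COS2 has the same coding sequence as COS3, which lies 7.24 kb from an end, so its own change is uncertain. Of 226 tested protein-coding genes within 25 kb of an end, outside the COS genes, 180 rose and 2 fell in upf1 with DMSO, where 62.0% of all features were called higher, with a median log2 change of 1.38. After rescaling 133 rose and 22 fell, beside 31.1% and 20.7% of all features and 1376 and 1854 of the 5897 protein-coding genes. The rescaled median was 0.89 against -0.11 for all protein-coding genes. The median was 1.68 for the 25 genes within 5 kb, 1.54 for the 42 at 5 to 10 kb and 1.12 for the 159 at 10 to 25 kb. After rescaling the medians were 1.22, 1.26 and 0.54, so the order of the 2 bins nearest the end depended on the scale. PHO89, a sodium-coupled phosphate transporter named for the smallest value of the 226 genes, fell by 1.72 (SE 0.24, limma adjusted p = 0.000129).

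**Figure D5:**
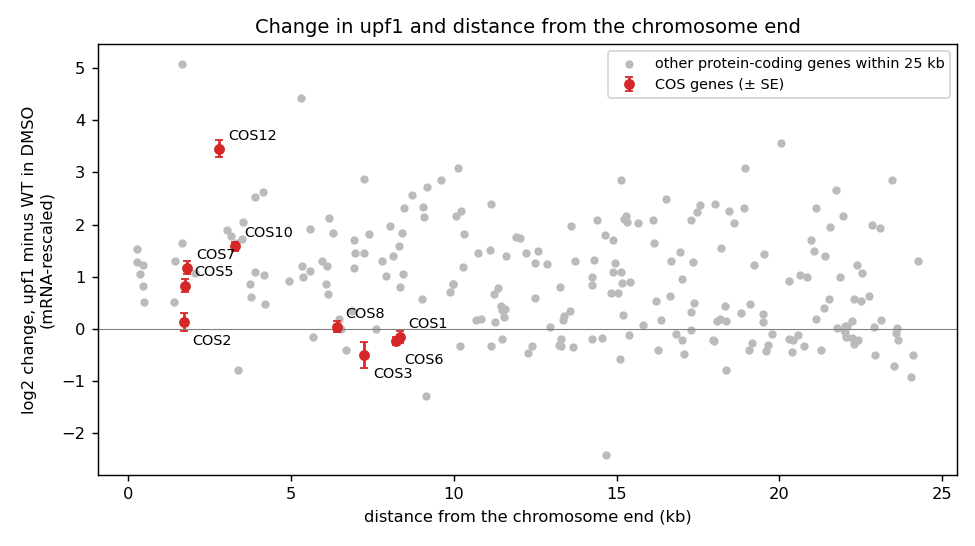
Log2 change in upf1 against WT with DMSO, rescaled to the typical mRNA (y axis), against the distance from the chromosome end in kb (x axis) for the 9 tested COS genes (red, with SE bars) and the other tested protein-coding genes within 25 kb (grey). COS12, COS10, COS7 and COS5 lie 1.75 to 3.29 kb from an end and above 0, among other genes within 5 kb whose rescaled median was 1.22.

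Nearest annotated genes were followed on both sides of each member. Of the 11 neighbours tested, 8 rose in upf1 with DMSO, with a median log2 change of 1.26, and 7 rose and 1 fell after rescaling. All 11 are also among the 226 genes within 25 kb of an end, so they are not a separate set. Of all features, 62.0% were called higher, and 31.1% higher and 20.7% lower after rescaling. Of the 5897 protein-coding genes, 3934 were called higher, and 1376 higher and 1854 lower after rescaling. AIF1, a mitochondrial cell death effector on the opposite strand from COS10 with a gap of 1177 bases, rose by 1.79 (SE 0.17, limma adjusted p = 7.79e-06). ARN2, a siderophore transporter 804 bases from COS8, rose by 1.48 (SE 0.15, limma adjusted p = 1.33e-05), beside the 0.72 of COS8. After rescaling AIF1 stood at 1.11 and ARN2 at 0.80, beside 0.04 for COS8. YML131W, next to COS3, stood at 0.36 and did not pass the test, and was called lower after rescaling at -0.33 (limma adjusted p = 0.0303). DDI2 next to COS1 at 0.62 and YHL048C-A next to COS8 at 0.06 did not pass the test on either scale. YGL262W, on the same strand as COS12 with a gap of 1379 bases, had 1 and 0 reads in wild type with DMSO and 96 and 85 in upf1 with DMSO. No fold is given, since 1 read stands in the wild-type group.

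Genes of related function were followed as lists chosen with earlier results of these data known. Their counts in upf1 with DMSO stand beside the same 62.0% of features called higher, or 31.1% higher and 20.7% lower after rescaling. These features include non-coding ones. Of the 5897 protein-coding genes, 3934 were called higher, or 1376 higher and 1854 lower after rescaling. The genes named are those with the largest and smallest change of each list, so their adjusted p-values are no support for the list. The DUP240 genes, the sister branch of the DUP family, all rose in upf1 with DMSO (10 of 10, median log2 change 1.10), and 6 did after rescaling. DFP1 (YAR023C) rose most, by 3.33 (SE 0.15, limma adjusted p = 2.84e-07), and its CHX effect was smaller in upf1 by 2.21 (SE 0.21, limma adjusted p = 0.00047). UIP3, a nuclear envelope protein, rose least, by 0.63 (SE 0.14, limma adjusted p = 0.00302), and stood at -0.07 after rescaling (limma adjusted p = 0.421).

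Of 21 multivesicular body sorting genes, 16 rose in upf1 with DMSO with a median of 0.60 beside the 0.57 of all protein-coding genes, and 3 rose and 5 fell after rescaling. SNF8, an ESCRT-II subunit, rose by 1.34 (SE 0.20, limma adjusted p = 0.000145). RSP5, the ubiquitin ligase of this route, stood at 0.23 (SE 0.14, limma adjusted p = 0.173) and did not pass the test, whereas it fell by 0.47 after rescaling (limma adjusted p = 0.000494). Of 21 telomeric silencing genes, 15 rose, with a median of 0.68. After rescaling 8 rose and 5 fell, beside 1376 and 1854 of the 5897 protein-coding genes. RIF2, which regulates telomere length with Rap1, rose by 2.21 (SE 0.22, limma adjusted p = 8.12e-06). TUP1, a general corepressor, had -0.04 (SE 0.14, limma adjusted p = 0.836) and fell by 0.73 after rescaling (limma adjusted p = 0.000832).

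Among 5498 other protein-coding genes, the rescaled profiles most like the mean profile of the 10 members over the 8 libraries were those of PLB1, a phospholipase B (r = 0.983), MMM1, a subunit of the tether between endoplasmic reticulum and mitochondria (r = 0.983), APP1, a phosphatidate phosphatase (r = 0.978), RRG8 (r = 0.977) and AQY3, an aquaglyceroporin-like gene (r = 0.977). The values share libraries and scaling and are a description. The correlation of single members with that mean, which contains them, was highest for COS5 (r = 0.969), then COS12 (0.957), COS7 (0.951) and COS10 (0.922), lower for COS8 (0.62) and COS2 (0.619), and lowest for COS1 (0.107), COS6 (-0.219), COS4 (-0.347) and COS3 (-0.353).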

How the data were processed

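Strand-specific total RNA-seq of 8 libraries was used. Per the submitters' processing notes, the tools were featureCounts 2.0.0, HISAT2 2.2.0, DESeq2 and Trim Galore, on R64. Roles and settings were not given in the sources used here, nor was the normalising reference. The deposited values are a normalised signal, a read density per feature made by the authors. Whole reads and feature lengths were recovered from the steps of the low values, within 0.001 reads for 11986 of 11986 features above 0. For protein-coding genes the shortest fitting length at or above the coding length was preferred.

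The test was limma 3.58.1 (R 4.3.3) on log2(density + 0.00548828) with 1 mean for each of the 4 groups (residual degrees of freedom 4) and Benjamini-Hochberg adjustment over 11700 features whose mean density reached the pseudocount. Log2 changes are on that scale and understate changes of low genes. Rescaled values divide each library by the median ratio over 5817 protein-coding genes. The test was checked on simulated data. The first acceptance rule, recovery of over 80% of 2-fold changes, was not met, and the rule was changed to recovery of 4-fold changes with unbiased folds; the limma code stayed the same. Smaller changes can therefore be missed. Sequences were aligned with MAFFT 7.526.

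The members and lists were chosen with earlier results of these data known. Named genes are all members, COS9, nearest neighbours, genes with the largest and smallest change of each list, marker genes for the labels and the 5 genes of most similar profile. Depth was 9.1 M to 25.66 M reads per library.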

Additional observations from a re-analysis of the deposited data

Results flagged for a closer look

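The interaction term of the model called the CHX effect lower in upf1 than in wild type for 4 members. The CHX effect in upf1 minus that in wild type was -0.81 for COS5, -1.06 for COS7, -1.4 for COS10 and -0.96 for COS12 on the log2 scale. These values are a description, since the choice of the family may have rested on them, and 25.3% of all features tested were called lower by the same term. After rescaling 3 of the 4 were called, without COS5, and with a pseudocount 10 times larger 2 were, COS7 and COS10. Without the second wild-type CHX library or the first upf1 DMSO library COS7 and COS10 were called as well. COS5 and COS7 share reads to an unknown extent.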

How the results depend on the processing

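Rescaling to the typical mRNA turned several directions. Members called with CHX in wild type went from 9 higher to 1 higher and 3 lower, with CHX in upf1 from 9 higher to 0 higher and 3 lower (limma; 0 higher also at an unadjusted p under 0.05, and 9 higher with voom on the deposited scale), in upf1 with DMSO from 8 higher to 4 higher and 1 lower, and in upf1 with CHX from 6 higher to 2. The members' median became -0.075 for CHX in wild type, -0.25 for CHX in upf1 and 0.14 for the difference. CHX in wild type became -0.49 for COS1, -0.075 for COS2, -0.41 for COS3, -0.36 for COS6, -0.34 for COS8 and -0.17 for COS9. CHX in upf1 became -0.25 for COS1, -0.17 for COS3, -0.36 for COS5, -0.22 for COS6, -0.45 for COS7, -0.032 for COS8, -0.60 for COS10, -0.56 for COS12 and -0.089 for COS9. In upf1 with DMSO the values became -0.16 for COS1, -0.495 for COS3, -0.23 for COS6 and -0.10 for COS9, and in upf1 with CHX -0.25 for COS3, -0.088 for COS6 and -0.021 for COS9. The difference of CHX effects became 0.24 for COS1, 0.17 for COS2, 0.24 for COS3, 0.14 for COS6 and 0.079 for COS9. The replicate block with rescaling gave these same values, and counts of 1 higher and 3 lower, 0 higher and 5 lower, 4 higher and 2 lower, and 3 higher. The replicate block alone turned no direction, ended no call and added 3; replicate numbers did not pair the samples (correlations of deviations -0.039 to 0.077). A pseudocount 10 times larger left 2 members called for the difference of CHX effects and gave 0.11 for COS2 there; the value of COS8, 0.002, was -0.007 with a smaller pseudocount and -0.011 with voom. Leaving out 1 library gave 9 to 9 members higher for CHX in wild type, 8 to 9 for CHX in upf1, 6 to 8 in upf1 with DMSO, 1 to 8 in upf1 with CHX, and 2 to 4 lower for the difference. Of single-gene values without 1 library, 351 kept direction and call, 31 lost the call, 3 gained it and 15, none of them called, changed sign; the cause was not tested. These 15 were COS3 in upf1 with DMSO (-0.021 to 0.371) and in upf1 with CHX (-0.076 to 0.308), and the difference of CHX effects for COS1 (-0.136 to 0.006), COS2 (-0.281 to 0.143), COS3 (-0.255 to 0.136) and COS8 (-0.061 to 0.064). COS12 in upf1 with DMSO ranged from 3.87 to 4.16 without 1 library, and was 2.75 and 4.26 with the larger and the smaller pseudocount.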
